A study of Sus scrofa domesticus with 6 samples.

Results

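FDFT1, HMGCS1, SQLE, IDI1, FDPS, INSIG1 and SREBF2 are genes of cholesterol synthesis and of its control. They were taken as the feature rows that carry exactly these names, and all 7 were listed in each of the 6 libraries, out of 33025 gene names listed in any library and 23556 listed in all of them. The set was selected on measured values of these same libraries, namely the higher level of FDFT1 in myeloid cells of the grafts. Values in macrophage-, monocyte-, neutrophil- and dendritic-like cells are therefore described without a test. The question is whether the other genes of the pathway moved with FDFT1 there, and what the 7 genes did in the remaining cell classes.

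The data are droplet single-cell RNA counts from pigs (Sus scrofa domesticus) in a model of lung ischaemia-reperfusion injury (IRI), in which a single lung was kept cold for 24 h, transplanted and reperfused for 8 h. The IRI CD45+ group has 2 libraries of graft cells sorted for CD45, the common leukocyte surface protein. The IRI CD45- group has 1 library of graft cells sorted for its absence. The control group has 3 libraries of unsorted cells from the donors' right lungs, which were not transplanted. Graft cells were also sorted for viability and control cells were not, so injury and sorting cannot be told apart in any comparison between them. The gene lists of the matrices differed by group too. All control libraries and no graft library listed 687 genes, and 399 were listed the other way round. A difference in how the matrices were made cannot be told apart from injury either. Leukocytes of the donor and of the recipient are not separated in a graft library. No age, sex or breed is given in the labels used here, nor which control and graft came from the same donor, so p-values measure the spread between libraries.

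Cholesterol is built from acetyl-CoA through the mevalonate pathway. HMGCS1 makes HMG-CoA, IDI1 isomerises isopentenyl diphosphate, FDPS builds farnesyl diphosphate, FDFT1 (squalene synthase) joins farnesyl diphosphate into squalene, the committed step towards sterols, and SQLE (squalene epoxidase) oxidises squalene. When sterols in the endoplasmic reticulum are low, the transcription factor SREBP-2, encoded by SREBF2, is escorted by SCAP to the Golgi, is cleaved there and switches on the synthesis genes; INSIG1 holds SCAP back when sterols are plentiful. In the lung, cholesterol is part of the surfactant made by alveolar type 2 (AT2) cells, and alveolar macrophages take up surfactant lipid and export cholesterol from it.

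Libraries held between 19098567 and 40647380 UMIs (counted RNA molecules), and 40812 cells passed the filters. Each cell class was named from marker genes after clustering without the cholesterol genes, and its defining markers were present in the named classes compared, except that MARCO and TREM2 were at 0 in the macrophage-like cells of IRI CD45+ library 1. Graft macrophage-like cells were few, 32 and 30 in the IRI CD45+ libraries, against 269, 407 and 413 in the control libraries. Monocyte-like cells numbered 220 and 992 and neutrophil-like cells 877 and 754 in the IRI CD45+ libraries, while no control library held 20 cells of either class, so neither has a control value. The control matrices held no cell under 1001 UMIs, whereas the smallest cells in the graft matrices had between 74 and 117 UMIs. Fibroblasts of the control libraries lay in cluster 11. Graft cluster 24 scored highest for the fibroblast markers, with 12 of them raised 2-fold or more. However, 0 of them were among its 10 leading genes, which began with PTX3, BDKRB2 and IL6 and held THBS1 of the monocyte list. The naming rule left a cluster unnamed when another class had more markers among the leading genes, so cluster 24 stayed unnamed. Clusters 24 and 11 are called fibroblast clusters here for that score alone. Levels are CPM, a gene's UMIs per 1000000 UMIs of all cells of the class in a library, over the genes listed in all 6 libraries. Single-gene values printed with a log2 change are instead TMM-scaled CPM over the genes tested in that fit. The exception is FDFT1 where it is first described in dendritic-like cells. The same gene can therefore have slightly different values in different paragraphs. Cell names were running numbers, so barcodes shared between libraries could not be counted.

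FDFT1 was far higher in macrophage-like cells of the grafts than in those of control lungs, and in the IRI CD45+ libraries monocyte-like cells held it at a similar level. In macrophage-like cells FDFT1 stood at 1351 and 1698 CPM in the IRI CD45+ libraries, against 121, 104 and 76.5 CPM in the control libraries. The groups did not overlap, and the lower graft library was above every control library in every class measured. After TMM scaling, an adjustment for differences in RNA composition, FDFT1 averaged 1596 ± 260 CPM in the IRI CD45+ libraries (SD, n = 2) and 98.7 ± 23.1 CPM in the control libraries (SD, n = 3), a log2 change of 4.02 ± 0.23 (SE). In dendritic-like cells FDFT1 stood at 302 and 475 CPM in the IRI CD45+ libraries, against 38.3, 35.1 and 42.0 CPM in the control libraries, again without overlap, and the log2 change was 3.41 ± 0.21 (SE). Because these values led to the choice of the genes, no p-value is given for them. The macrophage marker list in macrophage-like cells summed to 12440 and 16083 CPM in the IRI CD45+ libraries. Control libraries held 7130, 7444 and 9651 CPM of it. The monocyte list was 1459 and 1220 CPM in the IRI CD45+ libraries, against 2815, 2003 and 2070 CPM in the control libraries. The neutrophil list overlapped, at 3261 and 858 CPM in the IRI CD45+ libraries against 1277, 2078 and 3742 CPM in the control libraries.

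Within the grafts FDFT1 had a clear order of levels over cell classes. Macrophage-like cells at 1351 and 1698 CPM and monocyte-like cells at 1518 and 1378 CPM overlapped at the top of the IRI CD45+ libraries. Dendritic-like cells at 302 and 475 CPM came next, above mast- or basophil-like cells at 215 and 288 CPM. T/NK-like cells, the class that joins T and natural killer cells, held 172 and 217 CPM, which overlapped with the mast- or basophil-like range. Neutrophil-like cells held 74.3 and 178 CPM, and their range overlapped with plasma-like cells at 87.1 and 117 CPM and B-like cells at 86.2 and 113 CPM. Neutrophil-like cells lay below macrophage-, monocyte- and dendritic-like cells of the same libraries. The monocyte- and neutrophil-like classes shared markers. In monocyte-like cells of the IRI CD45+ libraries the neutrophil list summed to 6179 and 4839 CPM, above the monocyte list at 4480 and 3404 CPM. Neutrophil-like cells there held 6973 and 8614 CPM of the neutrophil list and 682 and 687 CPM of the monocyte list. The part of neutrophil RNA in the monocyte-like levels was not tested.

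The order was also read within single libraries. FDFT1 in monocyte-like cells was 17.6 and 12.2 times its level in B-like cells of the same IRI CD45+ library. In the IRI CD45- library, where monocyte-like cells held 632 CPM, the ratio was 18.7. For macrophage-like over B-like cells the ratio was 15.7 and 15.03 in the IRI CD45+ libraries, against 3.53, 3.26 and 1.95 in the control libraries. Control lungs had a flatter FDFT1 profile. Apart from ciliated-like cells, at 168 and 115 CPM in the control libraries with enough of them, the control class means ran from 27.7 CPM in plasma-like cells to 100.3 CPM in macrophage-like cells.

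**Figure D1:**
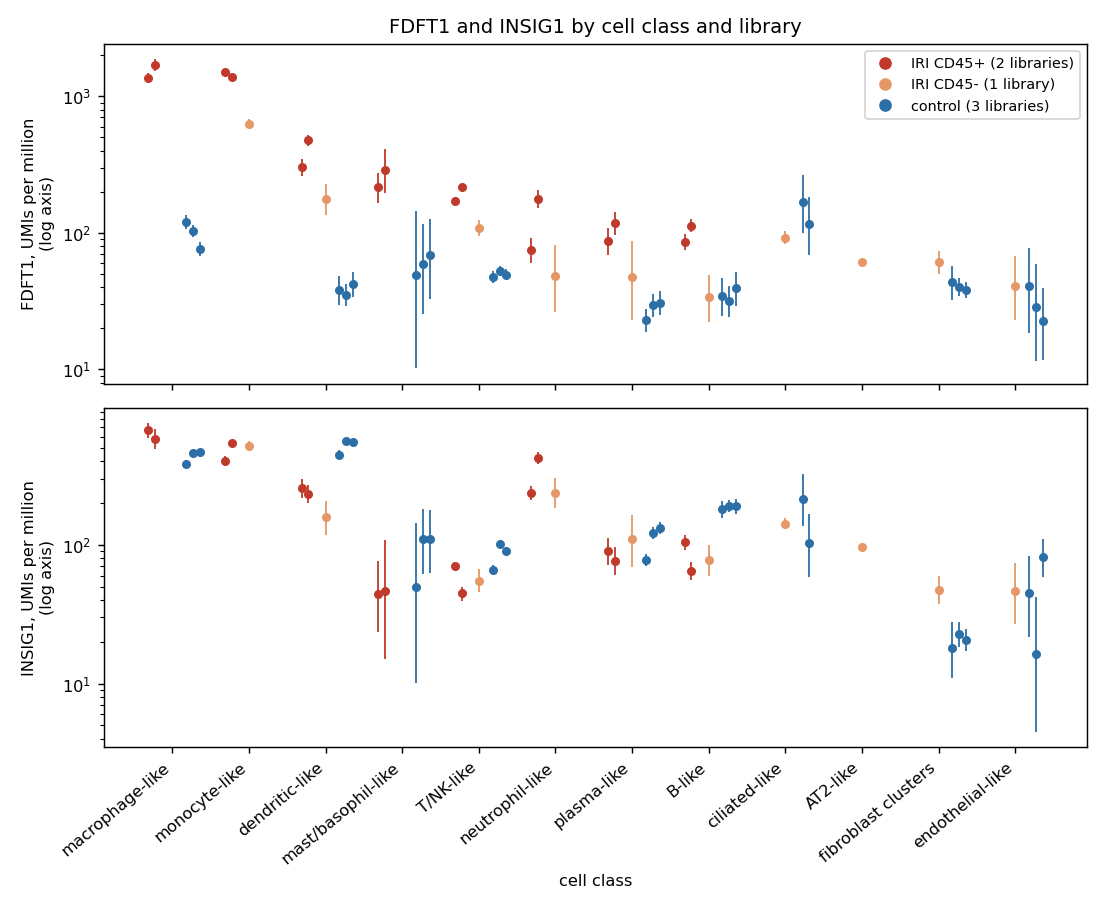
FDFT1 and INSIG1 levels in each cell class and library, in CPM on a log axis; points are libraries by group (IRI CD45+, IRI CD45-, control) and bars are exact 95% Poisson intervals, which cover counting error only. FDFT1 sits between 1351 and 1698 CPM in IRI CD45+ macrophage- and monocyte-like cells and at or below 121 CPM in control macrophage-like cells, while INSIG1 is high in macrophage-like cells of both groups.

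The high FDFT1 level was carried by many cells. After each cell was thinned to 500 UMIs, so that depth was equal, 43.8% and 43.3% of macrophage-like cells in the IRI CD45+ libraries held a FDFT1 UMI (exact binomial 95% intervals 26.4 to 62.3 and 25.5 to 62.6), against 5.20%, 3.19% and 3.39% in the control libraries. Both graft shares lay above all control shares. Unthinned, a FDFT1 UMI was found in 96.9% and 96.7% of these cells in the IRI CD45+ libraries at median depths of 10939 and 8852 UMIs, against 45.7%, 41.5% and 32.7% in the control libraries at 5652, 5247 and 6218 UMIs. Thinned monocyte-like cells held FDFT1 in 31.4% and 35.0% of cells in the IRI CD45+ libraries and in 18.5% in the IRI CD45- library. T/NK-like cells did so in 8.60% and 11.0% in the IRI CD45+ libraries, against 2.12%, 2.24% and 2.82% in the control libraries. Endothelial-like cells, the class taken as the background of low FDFT1, held it in 1.14% in the IRI CD45- library, against 1.28%, 1.41% and 0.505% in the control libraries.

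**Figure D2:**
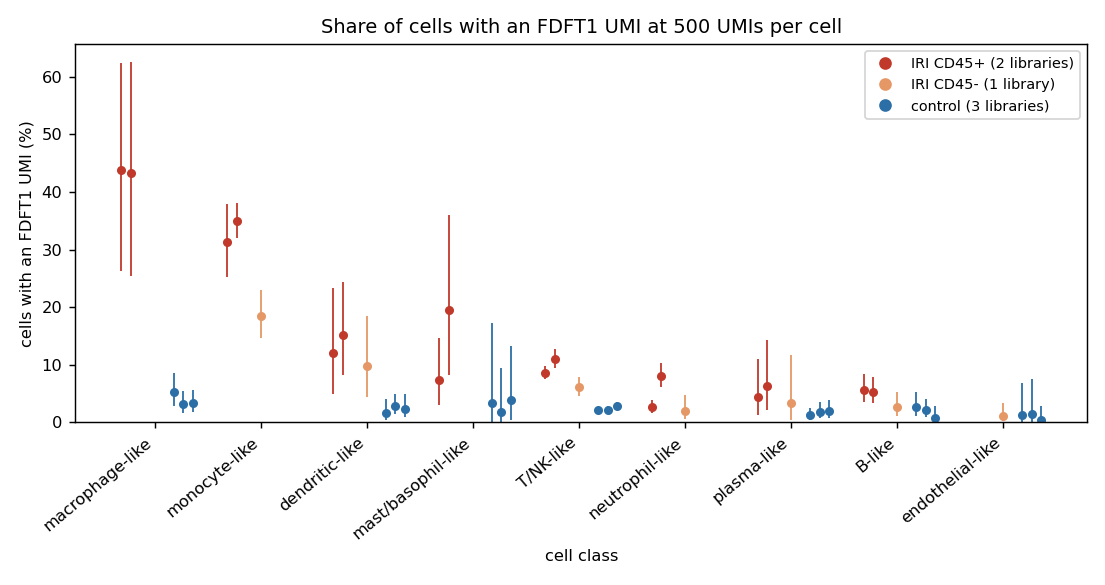
Share of cells with at least 1 FDFT1 UMI after thinning every cell to 500 UMIs, by cell class and library, in percent; bars are exact 95% binomial intervals for counting error. Graft macrophage-like cells lie at 43.8% and 43.3%, against 3.19% to 5.20% in control macrophage-like cells.

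Among the other genes of the set, INSIG1 was higher in both graft libraries than in all controls in macrophage-like cells, by a far smaller margin than FDFT1. Of the 7 genes, 2 passed the threshold of the fit over all genes as higher (FDFT1 and INSIG1) and 0 as lower; 24.3% of the 10643 genes tested passed, 9.78% as higher, and nothing is read from this count because the contrast chose the genes. The median log2 change of the other 6 genes was -0.35, beside -0.31 over all genes tested. The 5 synthesis and transcription factor genes other than FDFT1 rested on between 2 and 12 UMIs in each graft library, which limits the precision of their changes.

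In the order of the pathway, HMGCS1 stood at 12.8 and 27.6 CPM in the IRI CD45+ libraries, against 17.8, 19.5 and 36.3 CPM in the control libraries, a log2 change of -0.38 ± 0.55 (SE) in macrophage-like cells. IDI1 stood at 25.6 and 19.7 CPM in the IRI CD45+ libraries, against 28.1, 31.3 and 27.6 CPM in the control libraries (log2 change -0.33 ± 0.38 SE). The groups overlapped for HMGCS1, while both IDI1 values of the grafts lay just below the control values. FDPS stood at 30.7 and 47.4 CPM in the IRI CD45+ libraries, against 51.7, 57.9 and 39.0 CPM in the control libraries (log2 change -0.39 ± 0.36 SE). SQLE, which acts on the product of FDFT1, stood at 5.12 and 23.7 CPM in the IRI CD45+ libraries, against 4.13, 10.2 and 13.002 CPM in the control libraries (log2 change 0.46 ± 0.79 SE). The groups overlapped for both genes. SREBF2 stood at 17.9 and 7.89 CPM in the IRI CD45+ libraries, against 18.6, 20.03 and 19.0 CPM in the control libraries, with both graft values below the controls and a log2 change of -0.48 ± 0.49 (SE). INSIG1, the sterol sensor that restrains SREBP, was the exception at 699 and 608 CPM in the IRI CD45+ libraries, against 384, 438 and 462 CPM in the control libraries, without overlap and with a log2 change of 0.61 ± 0.18 (SE). INSIG1 no longer passed without control 1 or control 2, at 0.58 and 0.66. Without IRI CD45+ library 1 the INSIG1 change was 0.45.

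Monocyte- and neutrophil-like cells have graft values only, and FDFT1 and INSIG1 were the genes of the set that were high in monocyte-like cells. In monocyte-like cells of the IRI CD45+ libraries HMGCS1 was at 13.8 and 13.3 CPM, IDI1 at 10.2 and 9.25 CPM, SQLE at 9.47 and 8.18 CPM, and SREBF2 at 14.6 and 20.1 CPM. Each of these was below the level of the same gene in T/NK-like cells of the same libraries, whereas FDFT1 was 8.84 and 6.34 times and INSIG1 5.71 and 12.2 times its T/NK-like level. In neutrophil-like cells FDFT1, at 74.3 and 178 CPM, was not above its T/NK-like range of 172 and 217 CPM. INSIG1 stood at 401 and 545 CPM in monocyte-like and 237 and 424 CPM in neutrophil-like cells of the IRI CD45+ group.

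In dendritic-like cells FDPS and HMGCS1 were higher in both graft libraries than in all controls, as FDFT1 was; the difference from macrophage-like cells was not tested. Of the 7 genes, 4 passed as higher (FDFT1, HMGCS1, SQLE and FDPS) and 2 as lower (IDI1 and INSIG1), where 36.6% of the 10073 genes tested passed, 15.6% as higher and 21.0% as lower. Nothing is read from this count either. SQLE and IDI1 no longer passed without control 1, 2 or 3, and HMGCS1 did not without control 2 or 3. FDFT1, FDPS and INSIG1 still passed in these fits, which left out control libraries only. With IRI CD45+ library 1 left out, the FDPS change was 0.45. When 1 library was left out, SQLE ranged from 0.40 to 0.51 and IDI1 from -0.95 to -0.31. HMGCS1 then ranged from 0.60 to 0.85 and FDPS from 0.45 to 1.02. FDPS stood at 210 and 141 CPM in the IRI CD45+ libraries, against 94.1, 109 and 104 CPM in the control libraries, without overlap and with a log2 change of 0.76 ± 0.19 (SE). HMGCS1 stood at 128 and 107 CPM in the IRI CD45+ libraries, against 82.5, 67.0 and 63.0 CPM in the control libraries, a log2 change of 0.73 ± 0.19 (SE). Neither gene overlapped between the groups. SQLE had a log2 change of 0.46 ± 0.17, IDI1 of -0.60 ± 0.21 and SREBF2 of 0.08 ± 0.18 (SE). INSIG1 was lower, at 254 and 249 CPM in the IRI CD45+ libraries against 450, 552 and 543 CPM in the control libraries, a log2 change of -1.04 ± 0.14 (SE). The 9 monocyte markers in dendritic-like cells summed to 404 and 490 CPM in the IRI CD45+ libraries, against 272, 325 and 274 CPM in the control libraries. The 11 neutrophil markers summed to 227 and 340 CPM in the IRI CD45+ libraries, against 77.2, 86.3 and 83.5 CPM in the control libraries, and the part of these cells in the result was not tested. The macrophage list summed to 95.7 and 136 CPM in the IRI CD45+ libraries, against 131, 163 and 191 CPM in the control libraries.

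**Figure D3:**
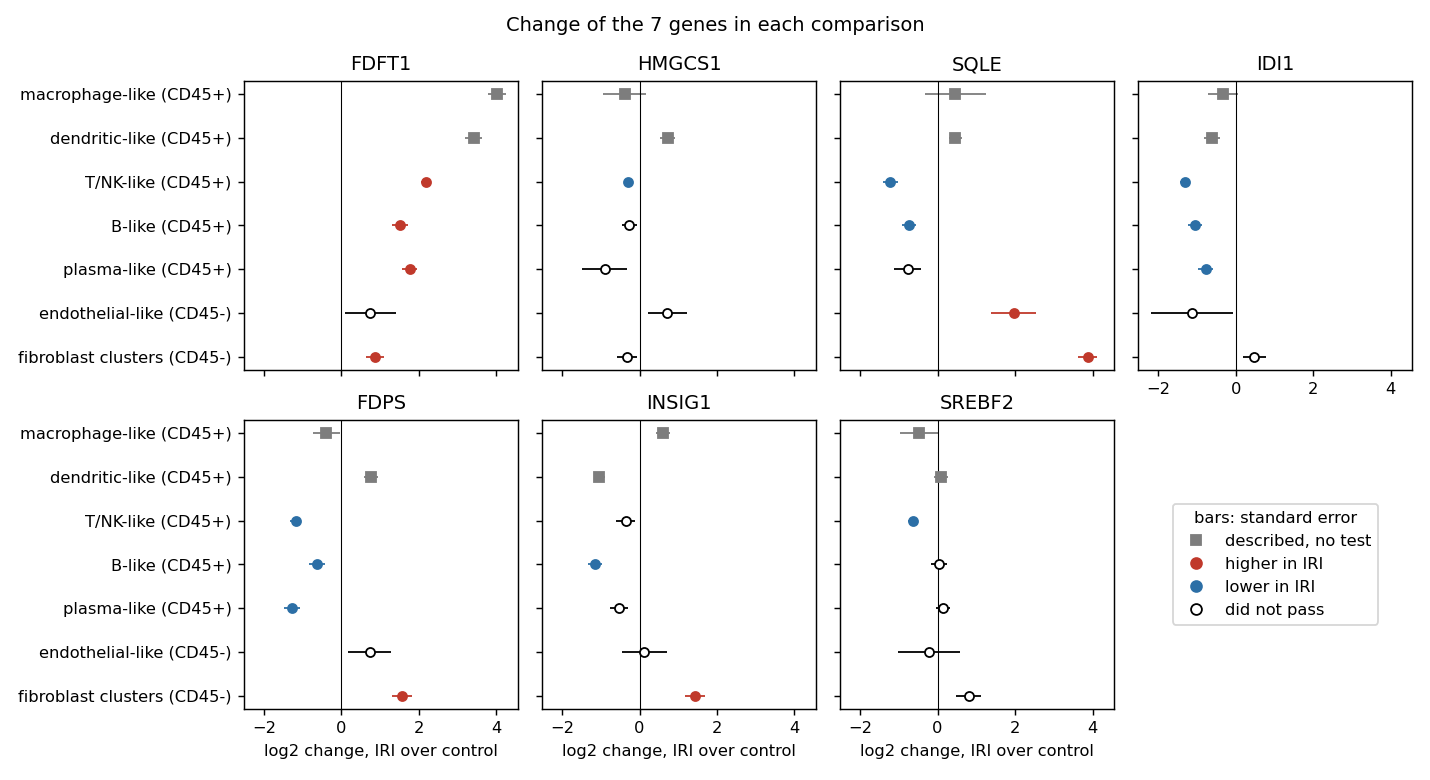
Log2 change ± SE of each of the 7 genes in 7 cell classes, graft over control (IRI CD45+ for the immune classes, IRI CD45- for endothelial-like cells and fibroblast clusters). Grey squares are the macrophage- and dendritic-like contrasts, described without a test; red is higher and blue lower past an adjusted p of 0.05, and open points did not pass. FDFT1 is above 0 in every panel entry, while IDI1, FDPS and SQLE lie below 0 in T/NK- and B-like cells.

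In T/NK-like cells, outside the contrast that chose the genes, FDFT1 rose while most of the set fell. Of the 7 genes, 1 was higher and 5 were lower, beside 65.6% of all 14744 genes tested, 31.1% as higher and 34.6% as lower; the median log2 change was -0.64 for the set and -0.05 for all genes. FDFT1 stood at 188 and 237 TMM-scaled CPM in the IRI CD45+ libraries, against 44.8, 50.2 and 46.5 CPM in the control libraries, without overlap (log2 change 2.17 ± 0.11 SE, edgeR quasi-likelihood adjusted p = 9.0e-10). The enzymes before and after it fell. IDI1 stood at 50.9 and 44.0 CPM in the IRI CD45+ libraries, against 101, 134 and 116 CPM in the control libraries (log2 change -1.30 ± 0.13 SE, edgeR adjusted p = 8.7e-07).

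FDPS, which supplies the FDFT1 substrate, stood at 52.4 and 53.9 CPM in T/NK-like cells of the IRI CD45+ libraries, against 106, 147 and 108 CPM in the control libraries (log2 change -1.18 ± 0.14 SE, edgeR adjusted p = 9.0e-06). SQLE stood at 24.7 and 26.6 CPM in the IRI CD45+ libraries, against 48.6, 76.6 and 53.2 CPM in the control libraries (log2 change -1.22 ± 0.19 SE, edgeR adjusted p = 0.00014). SREBF2 stood at 33.2 and 35.3 CPM in the IRI CD45+ libraries, against 48.7, 59.9 and 51.5 CPM in the control libraries (log2 change -0.64 ± 0.13 SE, edgeR adjusted p = 0.00058). For all 3 genes the graft values lay below every control value. HMGCS1 was lower by a smaller margin (log2 change -0.29 ± 0.11 SE, edgeR adjusted p = 0.031), and it no longer passed without control 1, IRI CD45+ library 1 or IRI CD45+ library 2, at -0.24, -0.30 and -0.29. INSIG1 overlapped between the groups and did not pass (log2 change -0.36, edgeR adjusted p = 0.26), but it passed as lower without control 1 or without IRI CD45+ library 1, at -0.53 and -0.74. The T/NK-like class was made of different clusters in the groups: clusters 6 and 10 held 58.8% and 39.2% of it in the IRI CD45+ libraries, whereas clusters 2, 0 and 3 held 45.7%, 40.1% and 11.7% in the control libraries.

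Markers of other cell types were summed in T/NK-like cells as well. The 9 monocyte markers summed to 64.4 and 104 CPM in the IRI CD45+ libraries, against 104, 85.8 and 82.0 CPM in the control libraries, and in monocyte-like cells of the same IRI CD45+ libraries to 4480 and 3404 CPM. The list of macrophage markers summed to 20.02 and 24.6 CPM in the IRI CD45+ libraries, against 75.2, 64.8 and 63.2 CPM in the control libraries. The list of neutrophil markers was higher, at 46.9 and 80.6 CPM in the IRI CD45+ libraries against 27.4, 23.1 and 35.8 CPM in the control libraries. FDFT1 stood in T/NK-like cells at 11.3% and 15.8% of its monocyte-like level in the IRI CD45+ libraries. The part of RNA from any of these cells in the result was not tested.

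In B-like cells FDFT1 rose and 4 of the 7 genes fell (INSIG1, IDI1, SQLE and FDPS), beside 42.2% of 9702 genes tested, 19.6% as higher and 22.5% as lower. All comparisons of immune classes use the same control libraries and are not independent of each other. FDFT1 stood at 85.7 and 117 CPM in the IRI CD45+ libraries, against 36.0, 33.1 and 36.8 CPM in the control libraries (log2 change 1.52 ± 0.21 SE, edgeR adjusted p = 1.1e-05). INSIG1 stood at 104 and 66.6 CPM in the IRI CD45+ libraries, against 190, 198 and 178 CPM in the control libraries (log2 change -1.15 ± 0.19 SE, edgeR adjusted p = 9.2e-05). The groups overlapped for neither gene.

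IDI1 in B-like cells stood at 68.4 and 77.1 CPM in the IRI CD45+ libraries, against 126, 164 and 159 CPM in the control libraries (log2 change -1.04 ± 0.18 SE, edgeR adjusted p = 0.00013). SQLE changed by -0.74 ± 0.18 (SE, edgeR adjusted p = 0.0031) and lost the call without IRI CD45+ library 1, at -0.51. FDPS changed by -0.62 ± 0.21 (SE, edgeR adjusted p = 0.021) and lost it without control 2 or IRI CD45+ library 2, at -0.48 in each case. HMGCS1 at -0.27 (edgeR adjusted p = 0.28) and SREBF2 at 0.04 (edgeR adjusted p = 0.89) did not pass. The monocyte list in B-like cells summed to 22.4 and 79.8 CPM in the IRI CD45+ libraries, against 36.8, 45.6 and 44.5 CPM in the control libraries, and the neutrophil list to 36.7 and 77.6 CPM in the IRI CD45+ libraries, against 7.71, 11.7 and 25.3 CPM in the control libraries; their part in the result was not tested.

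In plasma-like cells, the antibody-secreting descendants of B cells, FDFT1 rose and FDPS and IDI1 fell, 3 of 7 genes, beside 36.2% of 10767 genes tested, 14.8% as higher and 21.3% as lower. FDFT1 stood at 83.6 and 111 CPM in the IRI CD45+ libraries, against 24.5, 30.8 and 31.3 CPM in the control libraries (log2 change 1.76 ± 0.20 SE, edgeR adjusted p = 3.7e-06). FDPS stood at 44.5 and 32.2 CPM in the IRI CD45+ libraries, against 77.5, 99.4 and 101 CPM in the control libraries (log2 change -1.27 ± 0.22 SE, edgeR adjusted p = 0.00022). IDI1 changed by -0.77 ± 0.19 (SE, edgeR adjusted p = 0.0048). The groups did not overlap for these 3 genes, and all 3 calls held whichever library was left out. Plasma-like cells of both groups lay in cluster 5, but at a clustering resolution of 1.5 they parted, with 26 and 15 cells of the IRI CD45+ libraries against 575, 432 and 365 of the control libraries in cluster 6, and 82 and 68 against 4, 10 and 3 in cluster 28; the count of calls over the class remained 3. HMGCS1, SQLE and INSIG1 had log2 changes of -0.90, -0.76 and -0.53 and did not pass (edgeR adjusted p = 0.31, 0.11 and 0.078). Without control 1 all 3 passed as lower, which brought the count to 6 of 7. The monocyte list in plasma-like cells was higher in the grafts, at 355 and 299 CPM in the IRI CD45+ libraries against 144, 159 and 132 CPM in the control libraries, and so was the neutrophil list, at 31.7 and 60.9 CPM in the IRI CD45+ libraries against 9.22, 21.3 and 18.9 CPM in the control libraries. Their part in the result was not tested.

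Structural cells of the graft come from the single IRI CD45- library, so the tests assume that it varies like the controls. In fibroblast clusters, compared by cluster because cluster 24 held 99.5% of the graft cells and cluster 11 held 99.9% of the control cells, 4 of 7 genes were higher and 0 lower, beside 50.8% of 13764 genes tested, 24.2% as higher. SQLE stood at 169.5 CPM in the IRI CD45- library, against 14.2, 13.1 and 9.16 CPM in the control libraries (log2 change 3.87 ± 0.24 SE, edgeR adjusted p = 2.5e-08). FDPS stood at 50.3 CPM in the IRI CD45- library, against 18.7, 17.7 and 15.6 CPM in the control libraries (log2 change 1.57 ± 0.26 SE, edgeR adjusted p = 0.00023). INSIG1 stood at 53.6 CPM in the IRI CD45- library, against 17.8, 22.0 and 18.9 CPM in the control libraries (log2 change 1.43 ± 0.26 SE, edgeR adjusted p = 0.00038). FDFT1 stood at 69.0 CPM in the IRI CD45- library, against 42.7, 38.7 and 35.0 CPM in the control libraries (log2 change 0.85 ± 0.23 SE, edgeR adjusted p = 0.0074). In each case the graft library lay above every control. HMGCS1, IDI1 and SREBF2 had log2 changes of -0.33, 0.48 and 0.80 and did not pass (edgeR adjusted p = 0.30, 0.19 and 0.052).

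RNA of AT2 cells was also found in these structural cells of the IRI CD45- library. AT2-like cells made up 8227 of the 15017 cells kept from the IRI CD45- library, and their own SQLE level was 464 CPM. The 10 AT2 markers summed to 40610 CPM in the fibroblast clusters of the IRI CD45- library, which is 30.8% of their AT2-like level, against 450, 585 and 348 CPM in the control libraries. SQLE in the same cells stood at 32.4% of its AT2-like level, beside 31.0% for SFTPC, a surfactant protein gene of AT2 cells. The other genes called there had different proportions. Without TMM scaling FDPS stood at 44.5, INSIG1 at 47.5 and FDFT1 at 61.2 CPM. Their levels in AT2-like cells were 94.2, 96.9 and 61.2 CPM. The source of this RNA was not tested. When the AT2-like profile was subtracted in proportion to SFTPC, an alternative chosen after seeing the data that can subtract too much, 242 of the 253 SQLE UMIs were removed and the SQLE change was -0.16. FDPS at 0.53 and INSIG1 at 0.46 no longer passed (edgeR adjusted p = 0.21 and 0.25), FDFT1 still did at 0.81 (edgeR adjusted p = 0.015), and HMGCS1 at -0.78 and IDI1 at -2.95 passed as lower (edgeR adjusted p = 0.038 and 0.0012).

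In endothelial-like cells 1 of 7 genes was higher and 0 lower, beside 26.8% of 6704 genes tested, 14.8% as higher. The groups lay in different clusters: clusters 27.1 and 27.2 held 49.4% and 48.7% of the class in the IRI CD45- library, whereas cluster 7 held 99.1% in the control libraries. SQLE stood at 93.5 CPM in the IRI CD45- library, against 22.2, 25.8 and 23.0 CPM in the control libraries (log2 change 1.97 ± 0.58 SE, edgeR adjusted p = 0.0051). It did not pass without control 3 (1.89, edgeR adjusted p = 0.057) or by DESeq2 (2.04, adjusted p = 0.20). AT2 markers summed to 17530 CPM in these cells of the IRI CD45- library, against 135, 131 and 106 CPM in the control libraries. Under the same subtraction 23.0 of the 28 SQLE UMIs fell away, and the 5 left were too few to be tested. FDFT1 stood at 50.1 CPM in the IRI CD45- library, against 40.0, 30.1 and 23.0 CPM in the control libraries, and did not pass (log2 change 0.74 ± 0.66 SE, edgeR adjusted p = 0.42).

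The 27 further genes of the pathway hold the remaining enzymes, the SREBP control proteins and cholesterol uptake. They were counted in each class beside the share of all genes that passed. In macrophage-like cells 20 of them were tested, with 5 higher and 1 lower, beside 24.3% of all genes, and a median log2 change of 0.21. The higher ones were NPC1, which exports cholesterol from lysosomes (292 and 280 CPM in the IRI CD45+ libraries, against 130, 151 and 168 CPM in the control libraries, log2 change 0.93), ACAT2 (1.06) and the sterol enzymes CYP51A1 (1.61), MSMO1 (1.76) and HSD17B7 (2.09), and the lower was MBTPS1, the Golgi protease that cleaves SREBP (-1.78). ACAT2 no longer passed without control 1 or 3, and CYP51A1 and MBTPS1 did not without control 1, 2 or 3. Without IRI CD45+ library 1 the CYP51A1 change was 0.30 and the HSD17B7 change 1.96. Without IRI CD45+ library 2 ACAT2 changed by 0.78, MSMO1 by 1.32 and MBTPS1 by -1.33. NPC1 ranged from 0.85 to 1.06 when 1 library was left out. In dendritic-like cells 5 of 22 were higher and 1 lower, beside 36.6% of all genes, with a median of 0.30. MVD, an enzyme of the mevalonate steps, changed by 1.66 there, ACAT2 by 0.68 and HSD17B7 by 0.94, while SREBF1 changed by -1.97. Nothing is read from these counts in myeloid classes.

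In T/NK-like cells 4 of 24 further pathway genes were higher and 7 were lower, a smaller share than the 65.6% of all genes that passed there, with a median log2 change of -0.24. LBR, a nuclear envelope protein with sterol reductase activity, rose by 0.70 (edgeR adjusted p = 0.00012), HSD17B7 by 0.51 (edgeR adjusted p = 0.0031) and SCAP by 0.64 (edgeR adjusted p = 0.0034, lost without IRI CD45+ library 1). CYP51A1 changed by -0.58 (edgeR adjusted p = 0.0019) and the sterol carrier STARD4 by -1.03 (edgeR adjusted p = 0.0024, lost without IRI CD45+ library 2). ACAT2 (-0.38), MVK (-0.61) and EBP (-0.48) were lower too, and all 3 lost their call when control 2 was left out.

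In B-like cells 1 of 23 further genes was higher and 6 were lower, beside 42.2% of all genes, with a median log2 change of -0.22. STARD4 stood at 11.9 and 13.9 CPM in the IRI CD45+ libraries, against 26.99, 35.9 and 30.3 CPM in the control libraries (log2 change -1.28 ± 0.28 SE, edgeR adjusted p = 0.0013). Its call held whichever library was left out, whereas NPC1, GGPS1, SC5D, CYP51A1 (lower) and MVD (higher) lost theirs without at least 1 library. In plasma-like cells 2 of 23 were higher and 1 lower, beside 36.2% of all genes, with a median of 0.02: LBR (0.97, edgeR adjusted p = 0.0021), HSD17B7 (1.26, edgeR adjusted p = 0.001) and MBTPS1 (-0.92, edgeR adjusted p = 0.0035).

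In fibroblast clusters 12 of 24 further genes were higher and 1 was lower, beside 50.8% of all genes (24.2% as higher), with a median log2 change of 1.09, beside -0.26 over all genes. NPC1 stood at 198 CPM in the IRI CD45- library, against 8.90, 17.2 and 14.8 CPM in the control libraries (log2 change 3.75 ± 0.24 SE, edgeR adjusted p = 4.1e-08). STARD4 changed by 2.74, ACAT2 by 2.33 and MBTPS1 by -1.39. In endothelial-like cells 6 of 13 were higher and 0 lower, beside 26.8% of all genes (14.8% as higher), with a median of 1.31. NPC1 stood there at 144 CPM in the IRI CD45- library, against 31.1, 21.5 and 23.0 CPM in the control libraries (log2 change 2.51 ± 0.53 SE, edgeR adjusted p = 3.7e-05). The graft value lay above every control value in both classes. After the AT2-like profile was subtracted, NPC1 still changed by 2.53 in fibroblast clusters and by 1.81 in endothelial-like cells (edgeR adjusted p = 1.1e-05 and 0.014), and the counts of further pathway genes were 6 higher and 7 lower in fibroblast clusters and 4 higher and 1 lower in endothelial-like cells.

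**Figure D4:**
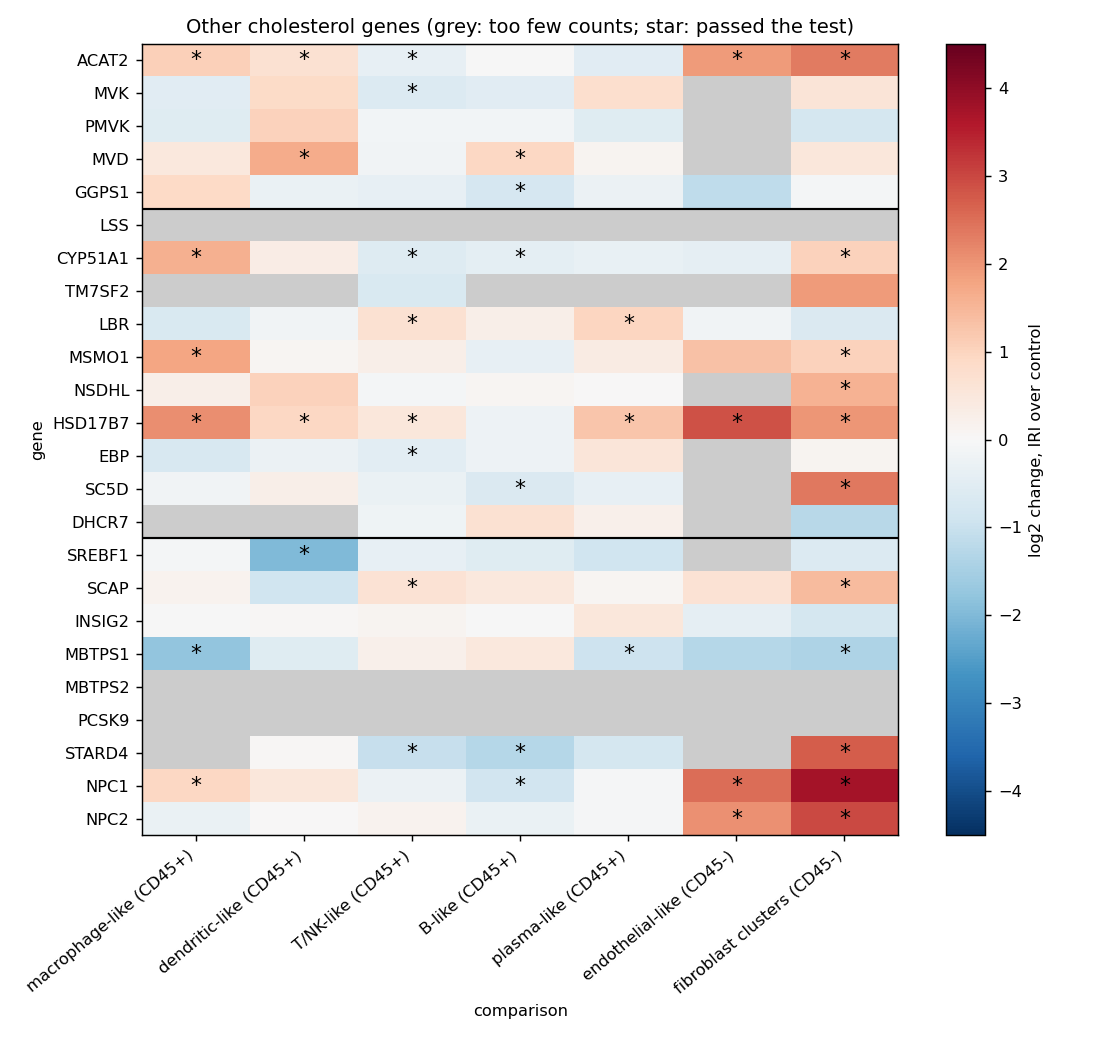
Log2 change of further pathway genes (rows) in 7 cell classes (columns), graft over control; colour gives the change and a star marks genes past an adjusted p of 0.05. NPC1 is higher in endothelial-like cells and fibroblast clusters (2.51 and 3.75), while STARD4 is lower in T/NK- and B-like cells (-1.03 and -1.28).

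Cholesterol leaves cells under the control of the LXR receptors, and 10 genes of that list were counted in each class. In macrophage-like cells 2 of 10 were higher and 1 lower: the exporter ABCA1 (log2 change 0.80), the cholesterol-esterifying enzyme SOAT1 (1.98) and the lipoprotein APOE, which stood at 1425 and 537 CPM in the IRI CD45+ libraries, against 3586, 3477 and 4142 CPM in the control libraries (-1.92). In dendritic-like cells 0 were higher and 4 lower, in plasma-like cells 0 and 3, in B-like cells 1 and 3 of 9 tested, in endothelial-like cells 0 and 1 of 7 tested, and in fibroblast clusters 1 and 2. The shares of all genes that passed were 24.3% in macrophage-like, 36.6% in dendritic-like, 36.2% in plasma-like and 42.2% in B-like cells, so nothing is read from these counts. In T/NK-like cells 1 of 10 was higher, NR1H2, which encodes LXR beta (1.12, edgeR adjusted p = 3.1e-06), and 2 were lower, APOE (-4.99) and SOAT1 (-1.29). MYLIP, a ubiquitin ligase, was lower in B-like cells (-1.13) and plasma-like cells (-1.83). Among 8 genes of the other branches that use farnesyl diphosphate, 2 were higher and 2 lower in T/NK-like cells; COQ2, of ubiquinone synthesis, stood at 62.1 and 73.1 CPM in the IRI CD45+ libraries, against 26.8, 31.0 and 28.2 CPM in the control libraries (log2 change 1.23, edgeR adjusted p = 9.9e-07). For this list the counts of higher and lower genes were 1 and 1 in macrophage-like, 3 and 1 in dendritic-like, 0 and 2 in B-like, 1 and 0 in plasma-like and 0 and 0 of 5 tested in endothelial-like cells, and 4 and 0 in fibroblast clusters. Beside the same shares, with 65.6% in T/NK-like cells, 26.8% in endothelial-like cells and 50.8% in fibroblast clusters, nothing is read from these counts either.

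The gene next to FDFT1 was followed as well. FDFT1 lies on chromosome 14 from 14976259 to 15010701 of Sscrofa11.1 in the RefSeq annotation, and CTSB, which encodes the lysosomal protease cathepsin B, begins 3437 bases further on, at 15014139. In T/NK-like cells CTSB stood at 691 and 768 CPM in the IRI CD45+ libraries, against 142, 190 and 131 CPM in the control libraries (log2 change 2.24, edgeR adjusted p = 1.1e-07), where FDFT1 changed by 2.17. CTSB changed by 1.70 in B-like cells and by 1.67 in plasma-like cells (edgeR adjusted p = 1.7e-06 and 2e-06), where FDFT1 changed by 1.52 and 1.76. The ratio of the genes overlapped between the IRI CD45+ and control libraries in these 3 lymphoid classes. T/NK-like cells held 27.3 and 30.9 FDFT1 UMIs per 100 CTSB UMIs in the IRI CD45+ libraries, against 31.5, 26.5 and 35.5 in the control libraries. B-like cells held 52.0 and 43.6 in the IRI CD45+ libraries, against 57.1, 50.8 and 51.5 in the control libraries. Plasma-like cells held 36.0 and 60.1 in the IRI CD45+ libraries, against 35.3, 41.0 and 61.5 in the control libraries. In the single IRI CD45- library the ratio was below every control, at 18.1 in T/NK-like, 18.5 in B-like and 31.25 in plasma-like cells. Its B- and plasma-like values rest on 27 and 10 FDFT1 UMIs. In macrophage-like cells the groups did not overlap, at 16.9 and 21.3 in the IRI CD45+ libraries against 3.05, 3.10 and 2.81 in the control libraries, and CTSB itself changed by 1.35 there. In dendritic-like cells the ratio was 23.0 and 24.2 in the IRI CD45+ libraries, against 7.47, 6.39 and 8.78 in the control libraries. In T/NK-like cells RUSC1, 146 bases before FDPS, was higher at 12.02 and 9.20 CPM in the IRI CD45+ libraries against 5.36, 5.10 and 5.18 CPM in the control libraries (log2 change 1.03, edgeR adjusted p = 0.0018), and in fibroblast clusters WASHC5, 2253 bases before SQLE, changed by -1.43 (edgeR adjusted p = 0.0033). Which annotation assigned reads between the neighbouring genes is not given in the sources used here, so a read shared by them could count for either.

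**Figure D5:**
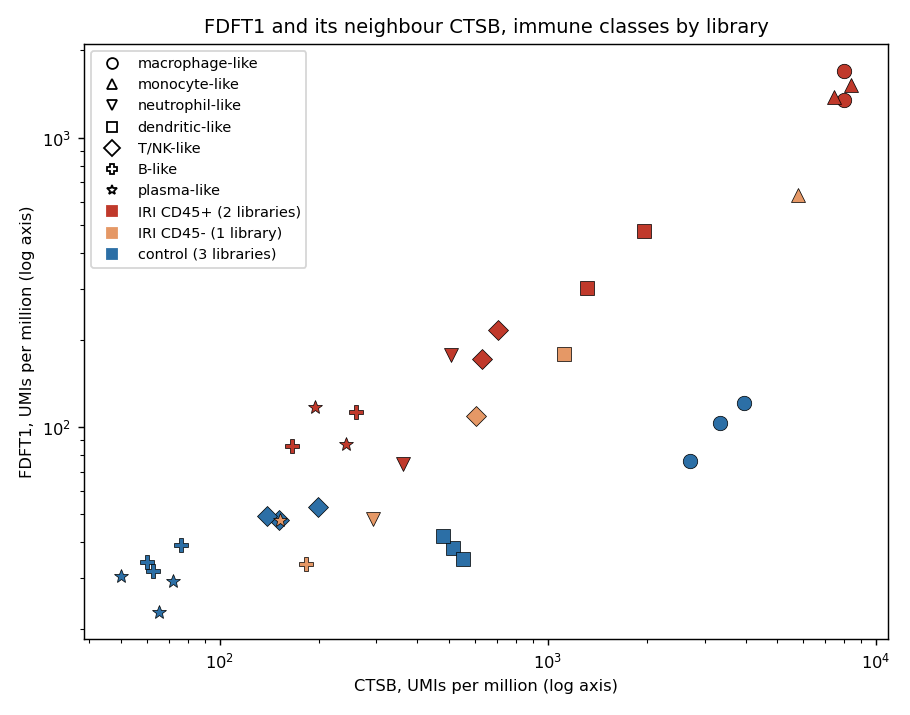
FDFT1 against CTSB in CPM, on log axes, for immune classes in each library; colour gives the group. Lymphoid classes of the IRI CD45+ and control libraries lie at 26.5 to 61.5 FDFT1 UMIs per 100 CTSB UMIs, while graft macrophage-, monocyte- and dendritic-like cells lie above the control myeloid cells, at a ratio of 16.9 to 24.2 in IRI CD45+ macrophage- and dendritic-like cells against 2.81 to 8.78 in the control ones.

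Across 61 class-by-library sums, the 5 of 3224 genes whose log2(CPM + 10) was most like that of FDFT1 were ARG1 (Pearson r = 0.81), ATP6V1F (0.78), F13A1 (0.78), CTSB (0.77) and METRNL (0.76). INSIG1 ranked 152nd (0.52), and the other 5 genes of the set ranked between 1994 and 2678 (-0.30 to -0.11). HMGCS1, by contrast, was nearest to IDI1 (0.67), SOD1 (0.63), PNN (0.62), TLE4 (0.62) and CYP51A1 (0.61), with SREBF2 at rank 17 (0.55), FDPS at rank 20 (0.54) and SQLE at rank 61 (0.47), while FDFT1 stood at rank 2955 of its list. The points share libraries, depth and control samples, so these values describe the sums and carry no test.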

How the data were processed

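The deposited matrices hold UMI counts per gene and cell, not normalized, written by PISA per the file headers; the submitters' processing notes name Sscrofa11.1, Seurat 5.5.3 and R 4.2.2, and neither an aligner nor a gene annotation is named in the sources used. The genes and lists were chosen with earlier results of these data known. From the deposited counts, cells with at least 500 UMIs, 200 genes and at most 20% mitochondrial UMIs were kept; the graft matrices list 0 mitochondrial genes and the control matrices 13, so the last filter acted on control cells only. Scrublet marked 0 to 5 cells per library and so did not work; removing the top 6% of scores was an alternative. Cells were clustered with scanpy 1.11.5 (2000 variable genes without the cholesterol genes, 30 components, 15 neighbours, Leiden resolution 1.0) and 17 classes were named by markers; fibroblast clusters were compared by number, chosen after seeing the clusters. UMIs were summed per class and library with at least 20 cells and tested with edgeR 4.0.16 (TMM, filterByExpr, quasi-likelihood, Benjamini-Hochberg over all genes tested, threshold 0.05); DESeq2 1.42.0 was an alternative. Whether shared numbers in the labels pair the libraries is not known. The difference between libraries 1 and 2 was correlated over genes between control and IRI CD45+. The correlations were -0.066, 0.033, 0.0035 and 0.00077 in macrophage-, T/NK-, B- and plasma-like cells. They cannot decide the question, because each group gives only a single difference. Intervals cover counting error only. Shares were taken after thinning to 500 UMIs, which left out 20 of 7889 immune cells of the IRI CD45+ libraries, 9 of 2257 of the IRI CD45- library and 7 of 12842 of the control libraries. The rule for named genes held the 7 genes, the 27 further pathway genes, the LXR and farnesyl lists, the genomic neighbours and the 5 genes most like FDFT1 or HMGCS1; of each list, up to 6 genes by smallest p were to be named and all counted, and further genes past the threshold were added after their values were seen. LSS was listed in 3 libraries and MBTPS2 in 0. Some further pathway genes are counted but not reported here by name. The statistics were tested on simulated data.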

Additional observations from a re-analysis of the deposited data

Results flagged for a closer look

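For several genes of the set the TMM-scaled levels of every graft library lay above all controls in 1 class and below them in another; the classes share control libraries and the differences between them were not tested. Values in dendritic- and macrophage-like cells are descriptions. HMGCS1 had a log2 change of 0.73 in dendritic-like cells and -0.90 in plasma-like cells, where it did not pass (edgeR adjusted p = 0.31) and the groups lay apart by little, at 33.7 and 40.2 CPM in the IRI CD45+ libraries against 40.3, 59.8 and 109 CPM in the control libraries; without TMM scaling they overlapped. SQLE had 0.46 in dendritic-like cells and -1.22 in T/NK-like cells. FDPS had 0.76 in dendritic-like cells and -1.27 in plasma-like cells. INSIG1 had 0.61 in macrophage-like cells and -1.15 in B-like cells. SREBF2 had 0.14 in plasma-like cells and -0.64 in T/NK-like cells, and the plasma-like value did not pass (edgeR adjusted p = 0.56).

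Leukocytes left in the IRI CD45- library enter no comparison. In dendritic- and T/NK-like cells of that library FDFT1 was above the counting interval of every control library of the same class. It stood at 178 CPM in dendritic-like cells, against 35.1 to 42.0 CPM in the control libraries, and at 109 CPM in T/NK-like cells, against 47.7 to 52.7 CPM in the control libraries. In B-like cells FDFT1 stood at 33.8 CPM in the IRI CD45- library, within the 31.8 to 39.1 CPM of the control libraries, and in plasma-like cells at 47.7 CPM, with a counting interval of 22.9 to 87.8 that reached the control values of 22.9 to 30.6 CPM.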

How the results depend on the processing

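FDFT1 in macrophage-like cells kept its direction under all alternatives run (3.82 to 4.32; 3.82 to 4.24 when 1 library was left out; 3.85 with the replicate block). The median of the other 6 genes there, -0.35, was -0.13 with a stricter cell filter, 0.15 with class sums thinned to the smallest, -0.033 with macrophage- and monocyte-like cells summed, and -0.46 to -0.0028 when 1 library was left out, the last without IRI CD45+ library 1. The 6 further pathway genes called there became 3 with the replicate block, 2 with thinned sums, 10 with monocyte-like cells added and 3 to 4 when 1 library was left out; fewer genes are tested in thinned sums, and the other causes were not tested. The count in plasma-like cells, 3, became 6 with no filter on low counts and ranged from 3 to 6 when 1 library was left out. In endothelial-like cells the count of 1 became 0 by DESeq2 (1 gene at an unadjusted p under 0.05). Without control 3 SQLE did not pass there, at a change of 1.89. After the AT2-like profile was subtracted, SQLE kept 5 UMIs there and fell under the count filter, so it was not tested. The same subtraction turned SQLE (-0.16) and IDI1 (-2.95) in fibroblast clusters. The count ranged from 5 to 6 in T/NK-like cells, 4 to 5 in B-like cells and 4 to 5 in fibroblast clusters when 1 library was left out. The replicate block left 6 calls in T/NK-like, 5 in B-like and 3 in plasma-like cells. The share of macrophage-like cells with a FDFT1 UMI, 43.5% in the IRI CD45+ libraries, was 96.8% without thinning. Scaling by library totals alone moved the median over all genes to -0.26 in T/NK-like, -0.42 in endothelial-like, -0.49 in fibroblast and 0.05 in plasma-like cells, and the share of calls that were higher to 36.6%, against 47.3% with TMM, in T/NK-like cells, 39.9% against 55.4% in endothelial-like cells and 51.0% against 41.0% in plasma-like cells. The gene most like FDFT1 was ARG1 at either pseudocount (0.81 and 0.80). Values of single genes were followed for the 7 genes, with macrophage- and dendritic-like cells left out. Of these values, 446 kept direction and side of the threshold, 17 newly passed, 12 no longer passed, 12 that were not called moved and 2 reversed. With 2 graft libraries and few macrophage-like cells, depth limits the 5 low genes of the set there.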
